A study of Rattus norvegicus with 8 samples.

Results

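The comparison of any dopamine agonist with the control in GH3 cells rested on 4 of the 8 arrays of the series, chosen by their labels. They were the single GH3 control array and the 3 treated GH3 arrays, which carried BRC (bromocriptine), CAB (cabergoline) or both drugs (CAB+BRC). GH3 is a rat pituitary tumour line known to secrete prolactin and growth hormone, and the other 4 arrays hold the same conditions in MMQ, a prolactin-secreting rat pituitary tumour line. RNA was hybridized to a rat genome array, with 1 array per condition and no replicate. The control cells received no drug according to the labels, and whether they received the solvent DMSO is not given. BRC and CAB were each used at 50 μmol/l when given alone, the BRC cells were harvested after 48 h, and neither the time of the CAB array nor the dose or time of the CAB+BRC array is given in the sources used here. Drug stocks in DMSO were thinned with medium lacking serum, and nothing says whether the arrays came from separate cultures.

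Both drugs are ergot derivatives that activate the D2 dopamine receptor, a receptor that lowers cAMP and holds back prolactin release in normal lactotroph cells. GH3 cells are known for carrying little or no functional D2 receptor, whereas MMQ cells carry it. Lysosomes, which several of the genes below serve, are the acid compartments that degrade material delivered by endocytosis and autophagy.

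Each array gave 1 intensity for each of 28295 probe sets, the groups of short probes that stand for a transcript. The median intensity per GH3 array ran from 48.4 to 49.9. Differences are given as log2 differences of the intensity plus 1, so that 1 is a 2-fold difference. Every treated array was compared with the same control array. A deviation of that array would therefore appear in all 3 differences, and with 1 control array it cannot be told apart from an effect of treatment. The arrays measure pooled RNA, in which fewer cells of a kind and less RNA per cell cannot be told apart. The probe set names in the table did not go with the values, and 0 of the 20 named probe sets carried the name of its gene. Genes were therefore named only where a fold printed in the study's gene lists equalled the ratio of exactly 1 probe set. This named 8 genes from the list for BRC in GH3 cells and 12 more from the list for CAB in MMQ cells. For the former, the ratio of BRC to control in GH3 cells was what identified them, and their values are given as a description without a test. LGALS3 was in both lists. For the other 12, no GH3 value was used. Markers of GH3 cells could not be named, so the label of the cells could not be checked against them.

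The treated arrays lay closer to each other than to the control. Over all probe sets the SD of the log2 difference from the control was 0.352 with BRC, 0.378 after CAB and 0.347 after both drugs. Between the treated arrays it was 0.291 for CAB against BRC, 0.251 for CAB+BRC against CAB and 0.207 for CAB+BRC against BRC. The combination was thus nearest to BRC, and the control stood apart from all 3.

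Across the treated arrays, 118 probe sets were at least 2-fold higher than the control in all 3 (0.417% of all probe sets) and 98 were at least 2-fold lower in all 3 (0.346%). In each single comparison the shares were 0.951% higher and 0.852% lower with BRC, 1.27% and 1.16% with CAB, and 0.873% and 0.785% with CAB+BRC. In any of the 3 arrays, 505 probe sets passed the 2-fold cutoff upwards and 493 downwards, and 0 were 2-fold higher in 1 array and 2-fold lower in another. CAB had the most probe sets past the cutoff in its array alone, 161 higher and 158 lower. BRC had 66 and 94 of that kind, and CAB+BRC 25 and 42. Without a cutoff, 8646 probe sets (30.6%) lay above the control in every treated array and 8118 (28.7%) below it. The 3 differences share 1 control array, so their signs are not independent and these shares do not measure agreement between the drugs. The probe sets 2-fold apart in all 3 outnumbered those past the cutoff with any given pair of treated arrays and not with the remaining one.

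**Figure D1:**
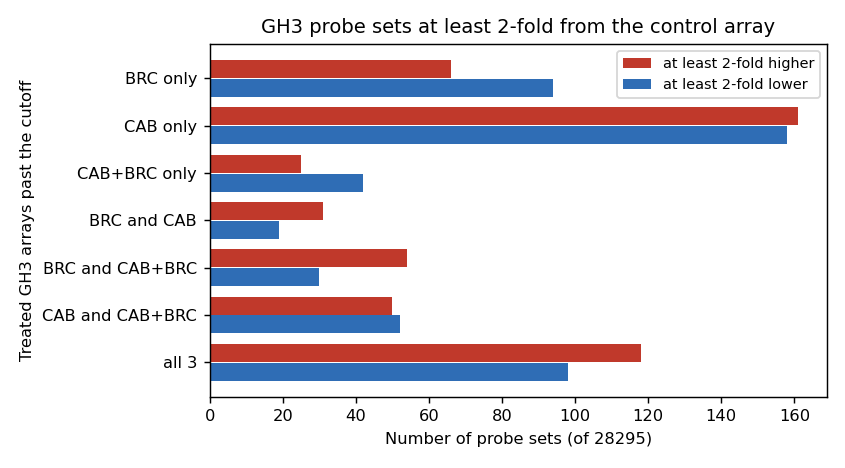
Counts of probe sets past the 2-fold cutoff above (red) or below (blue) the GH3 control, by which of the 3 treated arrays passed the cutoff, out of 28295. The longest bars are CAB only (161 higher, 158 lower), followed by all 3 (118 and 98), and CAB+BRC only has 25 and 42.

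The 118 shared higher probe sets had similar sizes with each treatment. Their median log2 difference was 1.36 with BRC, 1.37 after CAB and 1.35 after both drugs, and their median intensity was 87.0 in the control, 232 with BRC and 234 with either of the others. The 98 shared lower ones had medians of -1.27, -1.46 and -1.35 in that order, from a median control intensity of 308 to 119 with BRC, 103 after CAB and 111 after both drugs. The difference with CAB was larger in size than that with BRC for 56 of the 118 and for 59 of the 98. Over all 28295 probe sets this held for 14807, so nothing is read from these counts. By mean level in the GH3 arrays, 57 of the 118 and 41 of the 98 were among the brightest 7074 probe sets and 0 and 2 among the dimmest 7074. At the cutoff, the smallest of the 3 log2 differences was 1.00 for both the nearest probe set inside and the nearest outside, to 2 decimals, so that membership near the cutoff is arbitrary. It was 2.62 for the probe set highest in all 3 and -2.59 for the lowest.

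To set an error on the shift, the linear model of limma took the 4 GH3 arrays with the 3 treated arrays as 1 group against the control. The spread comes from the differences between the treated arrays, with 2 residual degrees of freedom, and the lone control is assumed to vary like them. Among the brighter 14147 probe sets (mean log2 value over the median), 333 were higher (2.35%) and 262 lower (1.85%) at a Benjamini-Hochberg adjusted p under 0.05, and 3368 (23.8%) had an unadjusted p under 0.05. The median log2 effect was 1.01 for those called higher and -0.99 for those called lower. Of the shared 2-fold probe sets bright enough for the fit, 101 of 103 higher and 75 of 78 lower ones passed, which counts the same arrays again. The calls depended on which treated arrays set the spread. Without the CAB+BRC array, limma called 0 probe sets in either direction, with 1951 at an unadjusted p under 0.05, and without the CAB array it called 1235 higher and 1539 lower.

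Genes of lysosomes and vesicle traffic were on both sides. GAA, which encodes the lysosomal enzyme that breaks down glycogen, had an intensity of 194 in the control, 664 with BRC, 578 after CAB and 635 after both drugs. DPP7, a dipeptidyl peptidase of vesicles and lysosomes, was at 357 in the control, 1050.3 with BRC, 1333 after CAB and 1007 after both drugs. All treated values of both genes lay at least 2-fold above the control, and CAB was the highest for DPP7 but the lowest treated value for GAA. GPNMB, a glycoprotein of lysosomes and melanosomes, was dim at 15.9 in the control, 53.4 with BRC, 24.0 after CAB and 47.6 after both drugs. The arrays with BRC were the higher ones for GPNMB, by log2 differences of 1.69 and 1.52 against 0.56 with CAB alone, and GPNMB was too dim for the fit to the GH3 arrays. With dim probe sets kept in, its limma log2 effect was 1.26 and did not pass. AP1S2, a clathrin adaptor subunit of vesicle traffic, was at 72.2 in the control, 111 with BRC, 170.2 after CAB and 145 after both drugs. Its limma effect of 0.95 (standard error 0.243) did not pass (adjusted p = 0.0810). ATP6V1G3, part of the V-ATPase that pumps protons into lysosomes, went the other way, with 969 in the control, 194 with BRC, 299 after CAB and 219 after both drugs. In limma ATP6V1G3 fell by 2.05 on the log2 scale, with a standard error of 0.248 and an adjusted p = 0.0258, and its adjusted p was 0.142 without the CAB+BRC array.

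The promoter of GAA is shown because it was the one of these gene promoters that held the letters CACGTG close to the start, the core of the element known to mark many lysosomal genes. The sequence runs 5′ to 3′ from 250 bases before to 50 bases after the RefSeq start, on GRCr8 at chr10:105028105-105028404, plus strand, with the match in capitals.
GAA: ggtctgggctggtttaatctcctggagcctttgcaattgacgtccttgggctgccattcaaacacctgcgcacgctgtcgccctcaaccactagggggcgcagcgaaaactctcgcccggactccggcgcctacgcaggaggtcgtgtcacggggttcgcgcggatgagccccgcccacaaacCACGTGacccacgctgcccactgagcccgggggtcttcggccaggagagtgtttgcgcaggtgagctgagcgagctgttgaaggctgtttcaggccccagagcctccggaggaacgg
The match began 67 bases before the start. Both strands were searched, and CACGTG is the same on both. Of the 20 named genes 19 had a promoter in the table, and 2 of them held CACGTG, GAA and AP1S2, where it began 250 bases before the start. Over all 33469 promoters 6.42% held it. A match of letters is no evidence of binding.

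Both named galectins, which are sugar-binding proteins, were higher in every treated array. LGALS3, a galectin found in the cytoplasm and at damaged lysosomes, was at 124 in the control, 425 with BRC, 305 after CAB and 418 after both drugs. LGALS9, a galectin known for acting on immune cells, was at 31.2 in the control, 154 with BRC, 127 after CAB and 144 after both drugs. For both, the 3 treated values lay at least 2-fold above the control, CAB was the lowest of them and CAB+BRC lay between the single drugs.

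Among genes of the membrane and of signalling, KCNMA1, the pore subunit of the calcium-activated BK potassium channel, was at 72.4 in the control, 262 with BRC, 233 after CAB and 252 after both drugs. BLNK, an adaptor protein of B cell receptor signalling, was at 59.7 in the control, 259 with BRC, 176 after CAB and 235 after both drugs. ASTN1, a membrane protein known from neuronal migration, was dim at 9.11 in the control, 33.5 with BRC, 53.3 after CAB and 25.4 after both drugs. The 3 genes were at least 2-fold higher in every treated array, and ASTN1 was lower with the combination than with either drug.

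Of the 10 probe sets of the list for BRC in GH3 cells, 8 were at least 2-fold higher in all 3 treated arrays, where the background is 0.417%. Nothing is read from this count, because the ratio of BRC to the shared control chose these genes. EGR1 was one of the remaining 2. EGR1 encodes a transcription factor that cells switch on within minutes of growth signals, and it was at 413 in the control, 2037 with BRC, 791 after CAB and 2390.3 after both drugs. The log2 difference from the control was 2.30 with BRC, 0.93 after CAB and 2.53 after both drugs. The arrays with BRC stood apart from CAB alone, and EGR1 was the named gene of this list with the combination above both single drugs.

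**Figure D2:**
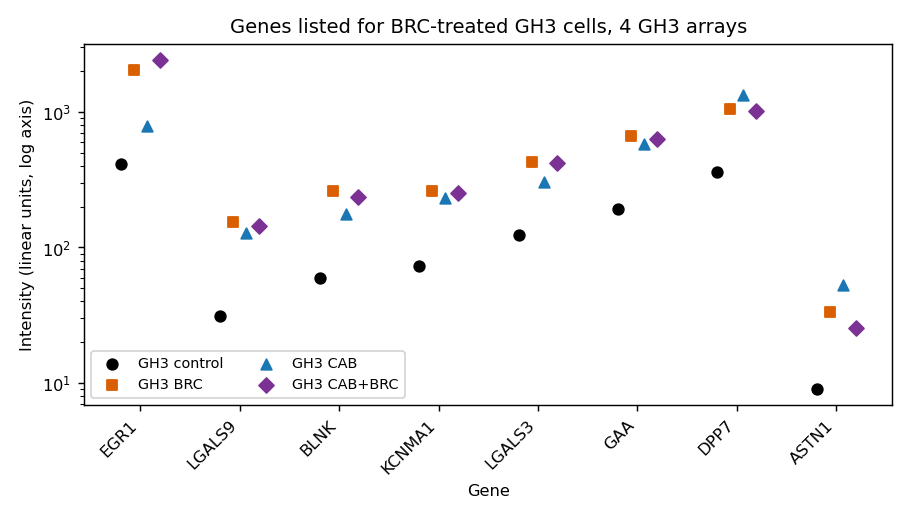
Intensity (log axis) of the 8 named genes of the list for BRC in GH3 cells with each GH3 array as a point. The control is the lowest point for every gene, and EGR1 with CAB (791) lies less than 2-fold above its control (413).

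The genes named through MMQ cells had no GH3 value in their choice. Of the 13 probe sets matched in this way, 0 reached 2-fold above the control and 2 reached 2-fold below it in all 3 treated GH3 arrays (0.417% and 0.346% of all probe sets), SHCBP1 and ATP6V1G3. In limma 9 of the 13 were bright enough, 3 fell and 0 rose, against 1.85% lower and 2.35% higher over all tested probe sets. The median effect of the 9 was -0.77, and that of all tested probe sets was -0.01. The 3 that fell, SHCBP1, ATP6V1G3 and ASPM, were listed as lower with CAB in MMQ cells, as was CDCA3. ACSS2, AP1S2, DDIT3, MVD and SQSTM1 were listed as higher there, so the median mixes genes listed in both directions.

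The 3 named genes of cell division had lower intensities in each treated array than in the control. SHCBP1, a protein of dividing cells that acts at the midbody, was at 263 in the control, 128 with BRC, 85.8 after CAB and 121 after both drugs. ASPM, a protein of the mitotic spindle poles, was at 733 in the control, 389 with BRC, 399 after CAB and 449 after both drugs. CDCA3, which promotes entry into mitosis, was at 688 in the control, 436 with BRC, 301 after CAB and 334 after both drugs. All treated values of the 3 genes lay below the control, as did those of 28.7% of all probe sets, and CAB gave the lowest value for SHCBP1 and CDCA3. In limma, SHCBP1 fell by 1.25 on the log2 scale (standard error 0.244, adjusted p = 0.0460) and ASPM fell by 0.83 (standard error 0.159, adjusted p = 0.0442). CDCA3 did not pass in limma, at -0.96 on the log2 scale, with a standard error of 0.226 and an adjusted p = 0.0688. Without the CAB+BRC array none of the 3 passed, with adjusted p of 0.164 for SHCBP1 and 0.178 for ASPM in limma. In the same fit with all 8 arrays, where the spread includes that of MMQ cells, they were 0.627 and 0.653.

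The promoters of the 2 cell division genes that fell are shown because they held the letters of the cell cycle homology region (CHR), an element known from genes of mitosis, searched as TTTGAA and TTCGAA on both strands. They run 5′ to 3′ as for GAA, with the match in capitals, on GRCr8 at chr16:91373621-91373920 for SHCBP1 and chr13:53625334-53625633 for ASPM, both plus strand.
SHCBP1: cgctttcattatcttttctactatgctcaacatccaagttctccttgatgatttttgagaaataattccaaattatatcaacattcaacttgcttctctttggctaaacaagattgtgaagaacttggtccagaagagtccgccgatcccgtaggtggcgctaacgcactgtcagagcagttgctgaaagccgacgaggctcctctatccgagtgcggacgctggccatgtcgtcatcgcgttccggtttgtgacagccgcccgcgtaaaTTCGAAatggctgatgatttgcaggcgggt
ASPM: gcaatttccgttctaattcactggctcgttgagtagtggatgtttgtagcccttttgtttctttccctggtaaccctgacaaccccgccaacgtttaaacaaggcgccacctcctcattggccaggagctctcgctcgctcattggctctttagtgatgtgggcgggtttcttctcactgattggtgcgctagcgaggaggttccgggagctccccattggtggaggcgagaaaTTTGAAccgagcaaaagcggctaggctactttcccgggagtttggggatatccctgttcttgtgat
In ASPM the match TTTGAA began 16 bases before the start, and in SHCBP1 the match TTCGAA lay from base 20 after the start. TTTGAA was in 18.3% of all promoters and TTCGAA in 1.69%. Of the 19 promoters of named genes 3 held one of them, the third being GAA with TTTGAA from 194 bases before the start. Over all promoters 19.7% held one of them, and here too a match of letters is no evidence of binding. CDCA3 had no match in its window.

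Of the stress genes, DDIT3, which encodes the stress-induced factor CHOP, was at 1063 in the control, 634 with BRC, 543 after CAB and 705 after both drugs. All 3 treated values lay below the control by less than 2-fold, and DDIT3 did not pass in limma (log2 effect -0.77 with standard error 0.187, adjusted p = 0.0735). SQSTM1, which encodes the autophagy receptor p62, was at 994 in the control, 1314 with BRC, 809 after CAB and 1091 after both drugs. SQSTM1 thus lay above the control in both arrays with BRC and below it with CAB alone, with a limma effect of 0.08 (standard error 0.267, adjusted p = 0.890).

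The enzymes MVD and ACSS2, which serve sterol synthesis and the supply of acetyl-CoA, showed small differences. MVD was at 149.5 in the control, 163 with BRC, 119 after CAB and 141 after both drugs. ACSS2 was at 237 in the control, 279.7 with BRC, 381 after CAB and 248 after both drugs. Neither passed in limma, with effects of -0.10 (95% interval -0.59 to 0.39, adjusted p = 0.816) for MVD and 0.33 (95% interval -0.27 to 0.92, adjusted p = 0.477) for ACSS2. The effect of ACSS2 was 0.15 without the CAB array. The innate immune genes were dim in GH3 cells and below the filter of the fit. Without the filter limma gave 0.22 for RSAD2 (adjusted p = 0.653) and 0.04 for CCL7 (adjusted p = 0.967) on the log2 scale. The chemokine CCL7 ranged from 14.1 with CAB+BRC to 19.0 with BRC or CAB, with the control at 16.7. RSAD2, an interferon-induced antiviral gene, ranged from 29.6 in the control to 39.6 with BRC, so the 4 arrays lay within 1.5-fold for both genes.

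**Figure D3:**
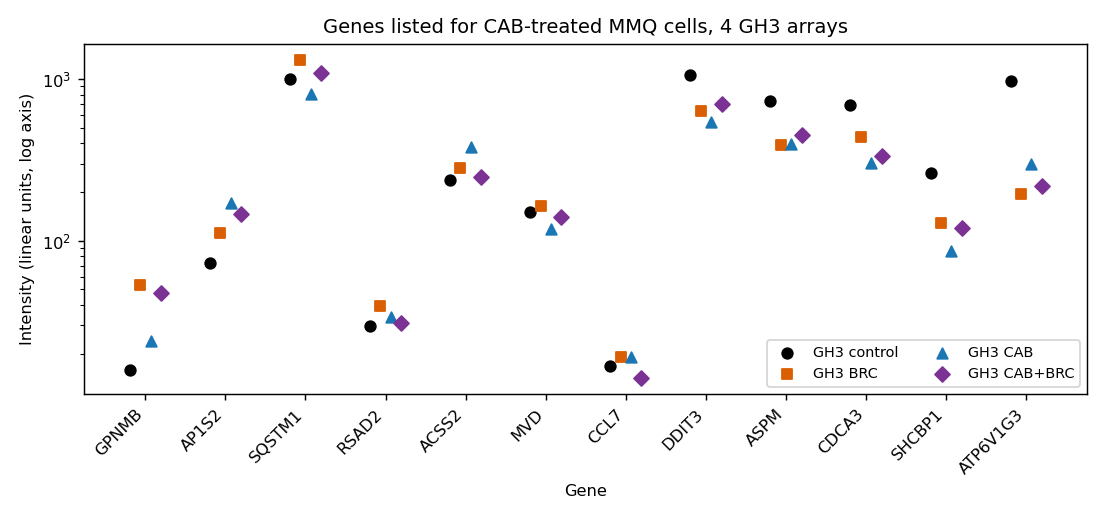
Intensity (log axis) of the 12 genes named through CAB in MMQ cells, with each GH3 array as a point. The control is the highest point for DDIT3, ASPM, CDCA3, SHCBP1 and ATP6V1G3, and the lowest for GPNMB, AP1S2, ACSS2 and RSAD2.

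The array with both drugs was then set against the sum of both drugs, as the log2 difference of CAB+BRC minus those of CAB and BRC. This departure was at least 2-fold above the sum for 365 probe sets (1.29%) and at least 2-fold below it for 443 (1.57%), with an SD of 0.409 over all probe sets. In MMQ cells the SD was 0.302, with 109 above and 74 below. There BRC alone gave few 2-fold differences (0.12% higher, 0.141% lower). With 1 drug near the control, a combination like the other drug has a small departure by arithmetic, so the lines are not compared. In GH3 cells both single drugs lay above the control for 437 of the 443 below the sum, and both lay below the control for 361 of the 365 above it. The combination thus gave less than the sum for 798 of these probe sets, and 0 exceeded the sum by 2-fold in the direction of both drugs. The control enters the departure with the opposite sign to the drug differences, so a shift common to all 3 treated arrays returns as a departure of equal size and opposite sign by arithmetic. Accordingly, the median departure was -1.41 for the 118 shared higher probe sets and 1.37 for the 98 shared lower ones. Its sign was opposite to the shift for all 118 and all 98. The same arithmetic acts on the 798 and 0 above, also for a deviation of the control array, so these counts are a description. Only 4 probe sets were at least 2-fold from the control with CAB+BRC while under 1.5-fold with each single drug, 2 of them higher.

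**Figure D4:**
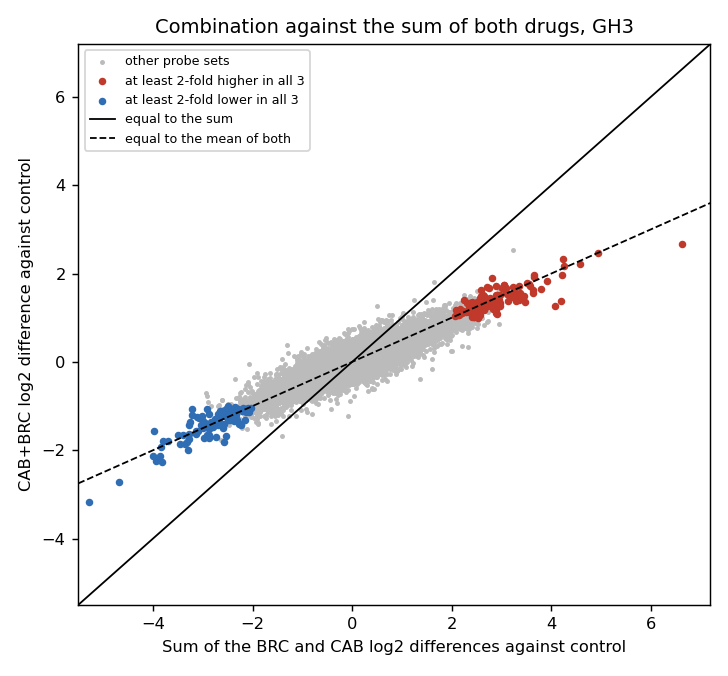
Log2 difference of CAB+BRC against the GH3 control (vertical) against the sum of the BRC and CAB differences (horizontal), 1 point per probe set, with the probe sets at least 2-fold higher (red, 118) or lower (blue, 98) in all 3 treated arrays. The points follow the dashed line, the mean of both drugs, and not the solid line, their sum.

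Departures of named genes differed in size. The ratio of BRC to control that named the genes of the list for BRC enters the departure, so their values are a description. For GAA the sum of both log2 differences was 3.35 and the combination gave 1.71, a departure of -1.64. For LGALS9 the sum was 4.26 and the combination 2.17. For ATP6V1G3, named through MMQ cells, the sum was -4.01 and the combination -2.14. Among the genes named in that way the departure ran from -0.85 for ACSS2 to 1.87 for ATP6V1G3. It was 0.03 for SQSTM1 and 0.12 for MVD. For EGR1 the sum was 3.23 and the combination 2.53, a departure of -0.70. EGR1 thus had the smallest departure in size among the named genes of the list for BRC, and ASTN1 the largest, at -2.81. With CAB alone EGR1 differed from the control by 0.93, and CAB+BRC lay 0.23 above BRC. When a combination is like BRC, a small CAB difference gives a small departure by arithmetic, so additivity is not read from it.

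The combination can be placed between the single drugs without the control. CAB+BRC lay between CAB and BRC for 42.3% of all probe sets, above both for 28.7% and below both for 29.0%. It was never 2-fold outside both, with 0 of 28295 probe sets at least 2-fold above both and 0 at least 2-fold below both. Its log2 value differed from the mean of CAB and BRC with an SD of 0.178, against 0.207 or more between pairs of GH3 arrays, although a mean of 2 arrays has less noise than 1 array. Against CAB alone, CAB+BRC was at least 2-fold higher for 11 probe sets (0.0389%) and lower for 35 (0.124%), and against BRC alone for 25 (0.0884%) and 5 (0.0177%). Of the 118 shared higher probe sets 61 lay between, 22 above both and 35 below both, and of the 98 shared lower ones 56, 19 and 23.

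The drugs were compared directly at 50 μmol/l, although the time of the CAB array is not known. CAB was at least 2-fold above BRC for 127 probe sets (0.449%) and at least 2-fold below it for 23 (0.0813%). The combination lay between the drugs for 118 of the 127, with a median log2 value 0.61 below CAB and 0.59 above BRC. For the 23 it lay between for 18, with a median 0.90 above CAB and 0.30 below BRC. As these probe sets were chosen by the difference between the drugs, their positions are a description. In a limma fit of additive drug effects to all 8 arrays, CAB minus BRC in GH3 cells passed for 0 of 14147 probe sets, while 1254 (8.86%) had an unadjusted p under 0.05. The error of this fit comes from the departures from the sum, with 1 residual degree of freedom per line. In GH3 cells a shift common to all treated arrays returns in that departure, so it enters the error. The count of 0 therefore does not bear on whether the drugs differ. Among the genes named through MMQ cells, CAB minus BRC was largest in size for GPNMB, at -1.12 on the log2 scale, or -0.79 with pseudocount 16. GPNMB was dim in GH3 cells and entered this fit only through its level in MMQ cells, so no test is given for it. CAB minus BRC was -0.70 for SQSTM1 (limma, 95% interval from -1.49 to 0.09, adjusted p = 0.574). For AP1S2 it was 0.61 (limma, 95% interval from -0.10 to 1.31, adjusted p = 0.580). These intervals carry the same error and include differences of over 2-fold. For EGR1 the single arrays were 1.36 apart, with CAB the lower.

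**Figure D5:**
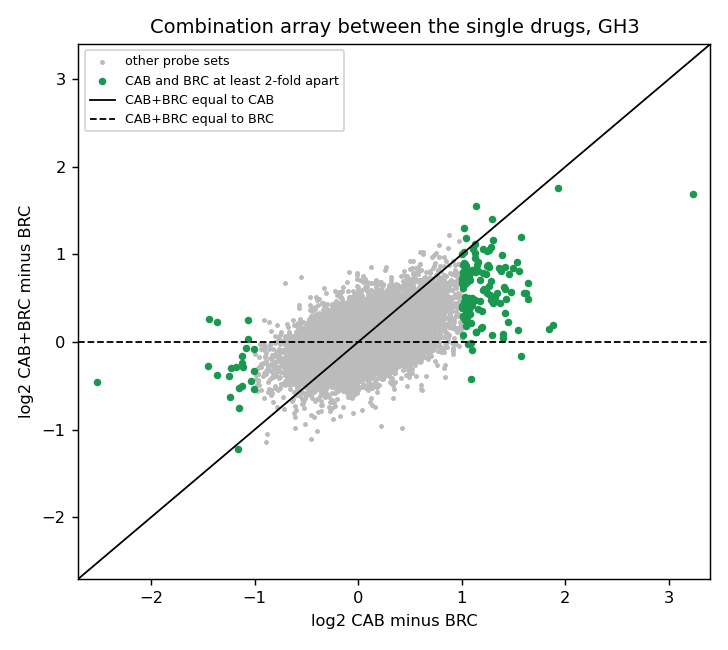
Log2 CAB+BRC minus BRC (vertical) against log2 CAB minus BRC (horizontal) in GH3 cells, 1 point per probe set, with green points where the drugs are at least 2-fold apart (127 to the right, 23 to the left). Most green points lie between the dashed line (equal to BRC) and the solid line (equal to CAB).

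Set beside MMQ cells, the shared GH3 probe sets had medians near the control there, with members on both sides. The 118 shared higher ones had a median log2 difference from the MMQ control of 0.08 with BRC, 0.14 after CAB and 0.20 after both drugs. The 98 shared lower ones had medians of 0.02, -0.24 and -0.17. With CAB in MMQ cells, 30 of the 98 were at least 2-fold lower, where the background is 1.37%, and 14 of the 118 were at least 2-fold higher, where it is 1.08%. In the opposite direction, 8 of the 98 were at least 2-fold higher and 4 of the 118 at least 2-fold lower with CAB. With CAB+BRC in MMQ cells, 32 of the 98 were lower by that cutoff (background 1.13%) and 15 of the 118 higher (1.39%), against 9 of the 98 higher and 3 of the 118 lower. With BRC, 4 of the 98 were lower (0.141%) and 2 higher (0.12%), and 1 of the 118 was higher and 1 lower. These backgrounds are over all probe sets, dim ones included. The shared lists hold few dim probe sets, and no background matched on level was computed. In all 3 treated MMQ arrays 7 probe sets were at least 2-fold higher (0.0247%) and 14 lower (0.0495%). The list higher in all 3 shared 1 probe set between the lines, 0.847% of the GH3 list and 14.3% of the MMQ list, and the list lower in all 3 shared 2, 2.04% and 14.3%. As many went the opposite way. Of the 118 higher ones 1 was in the MMQ list lower in all 3 (0.847% and 7.14% of the lists), and of the 98 lower ones 2 were in the MMQ list higher in all 3 (2.04% and 28.6%). The difference between the lines was tested in limma on all 8 arrays, as the mean treated effect in GH3 minus that in MMQ. It passed for 0 of 14147 probe sets, while 1394 (9.85%) had an unadjusted p under 0.05 and the lowest adjusted p was 0.0965. Without the MMQ BRC array it passed for 47 higher and 54 lower. The spread of this test holds the differences between the drugs in both lines. In MMQ cells 34 probe sets (0.12%) were at least 2-fold higher and 40 (0.141%) lower with BRC, against 306 (1.08%) and 389 (1.37%) with CAB. The count of 0 therefore does not show that the lines respond alike. A difference between the lines would also not show a response in GH3 cells alone.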

How the data were processed

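RNA of GH3 and MMQ cells was measured on 8 Affymetrix rat genome arrays, 1 per condition, grouped by the labels. The deposited values, made by the authors with the Command Console program of Affymetrix, are 1 linear intensity per probe set and array. The sources used here do not name the summarization or normalization. No detection calls were used. Annotation gives 1 gene symbol for 18948 probe sets, several for 399 and none for 8948, but these names were not used. The rule for named genes took every entry of both gene lists of the study whose printed fold equalled the ratio of 1 row within a relative 1e-06, which held for 24 of 26 entries and 23 rows. Results of 3 of these rows are not reported here, and they stay in the counts. Members, lists and tests were chosen with earlier results of these data known.

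Log2 of intensity plus 1 was compared without further scaling (Python 3.11.15), with the 2-fold cutoff of the study's methods. limma 3.58.1 in R 4.3.3 (lmFit, eBayes, two-sided, Benjamini-Hochberg, 95% intervals) was run on the brighter part of the table, where the mean log2 value over the arrays of the fit exceeded its median. The limma step was tested on simulated data, with the same shift in every treated array and a control that varied like them. A deviating control array and differences between the drugs were not simulated. Nothing says whether arrays came from separate cultures. With 1 array per condition, the p-values rest on differences between treatments or on departures from the sum, and not on replicates. The number of arrays limits precision. Alternatives were quantile normalization, median centring, pseudocount 16, other filters, priors and cutoffs, and leaving out arrays. Promoters are from RefSeq (GRCr8).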

Additional observations from a re-analysis of the deposited data

Results flagged for a closer look

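3 named genes lay on opposite sides of the control in the lines, in every treated array. KCNMA1 was above the control in all 3 treated GH3 arrays (log2 differences 1.84, 1.67 and 1.78 with BRC, CAB and CAB+BRC) and below it in all 3 treated MMQ arrays (-0.94, -2.16 and -1.75), a mean difference of 3.38 between the lines. BLNK differed by 2.24, with GH3 differences of 2.10, 1.55 and 1.96 and MMQ differences of -0.49, -0.34 and -0.29, where its intensities were 7.10 to 10.3. DDIT3 went the other way, below the control in GH3 cells (-0.74, -0.97 and -0.59) and above it in MMQ cells (1.26, 2.81 and 3.16), a difference of -3.18. KCNMA1 and BLNK were named by the BRC ratio in GH3 cells and DDIT3 by the CAB ratio in MMQ cells. These ratios enter the difference, so the values are a description and no test is given as support.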

How the results depend on the processing

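The counts of shared 2-fold probe sets, 118 higher and 98 lower, were within 1.5 times under quantile normalization, median centring and the filter on dim probe sets. With pseudocount 16 they were 77 and 65, at a 1.5-fold cutoff 620 and 575, and at a 3-fold cutoff 11 and 5. Leaving out 1 treated array gave 149 to 172 higher and 117 to 150 lower. Departures of 2-fold, 365 above and 443 below the sum, became 194 and 260 with pseudocount 16, 1820 and 1829 at 1.5-fold, and 41 and 58 at 3-fold. They need all 4 arrays, so none could be left out, and the GH3 control could not be left out of any comparison with control.

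For any agonist in GH3 cells limma called 0 to 1235 higher and 0 to 1539 lower with 1 treated array left out. With all 8 arrays in the fit it called 5 higher and 0 lower (2403 at an unadjusted p under 0.05). The difference between the lines gave 0 to 47 higher and 0 to 54 lower with 1 array left out, and CAB minus BRC 0 to 1 higher and 0 lower. Other settings stayed within 1.5 times for these counts. With 1 treated array left out, the limma log2 effect ran from -0.21 (without BRC) to 0.019 (without CAB) for MVD and from -0.081 (without BRC) to 0.27 (without CAB) for SQSTM1, with a change of sign in both. The calls of SHCBP1 and ASPM were lost without the dim filter (adjusted p = 0.0554 and 0.0524 in limma), and that of ASPM under quantile normalization (0.0512) and without the BRC array (0.0647). AP1S2, DDIT3 and CDCA3, which did not pass in the full fit, passed in limma without the CAB array (adjusted p = 0.0089, 0.011 and 0.0072), and AP1S2 and CDCA3 also without the BRC array (0.0373 and 0.0348). ATP6V1G3 had an adjusted p of 0.141 with all 8 arrays in the limma fit. The cause was not tested. No paired analysis was possible because the labels carry no replicate numbers and each condition has 1 array.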
